A study of Mus musculus with 2 samples.

Results

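The Egr, Nr4a and Nab genes are 8 of the 21938 protein-coding genes of the mouse annotation on chromosomes 1 to 19, X and Y, chosen by name as genes of the T cell activation response, and 7 of them were analysed here: *Egr1*, *Egr3*, *Nr4a1*, *Nr4a2*, *Nr4a3*, *Nab1* and *Nab2*. *Egr2* was not analysed here. The locus of each was its gene body with 20 kb on either side, which gave loci of 45.2 kb (*Egr1*) to 83.4 kb (*Nab1*) and 421 kb in all. Gata3 binding was measured by ChIP-seq in 2 libraries of 1 condition, splenic TH2 cells of the mouse expanded *in vitro*, so no groups were compared. According to the study's methods, naïve splenic CD4+ T cells were stimulated with anti-CD3, anti-CD28 and IL-2 in the presence of IL-4 and anti-IFNγ, which favour the TH2 fate. Neither the labels nor the study's ChIP-seq methods say how recently the cells had been stimulated. The culture methods give a day for flow cytometry but none for the chromatin. The labels give no genotype, strain, sex or age, and 1 of their fields names ILC2 in place of TH2 cells. Chromatin bound by an antibody against Gata3 was tagmented on the beads (ChIPmentation), and no input library was used here, so each peak was read against the read density of its own library.

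The Egr proteins are zinc finger transcription factors that T cells make within minutes to hours of antigen receptor signalling. The Nr4a proteins are orphan nuclear receptors induced by the same signals, and high Nr4a activity is known from T cells whose response is restrained. Nab1 and Nab2 bind Egr proteins and act mostly as co-repressors of Egr target genes. Gata3 is the zinc finger factor that directs TH2 differentiation and binds the letters GATA.

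A peak was a stretch of 200-bp windows with more reads than the local density (one-sided exact Poisson test, q of 0.01), and a shared peak was one called in both libraries. Library 1 held 40504814 reads and library 2 held 24959052 reads on these chromosomes, which came to 2.97 and 1.83 reads for an average window of 200 bp. They gave 71726 and 28204 peaks, of which 23806 were shared. Thinned to the 24959052 reads of library 2, library 1 still gave 46830 peaks, of which 21314 were shared. Genes known in TH2 cells or in T cells were examined for comparison: *Il4*, *Il13*, *Il5*, *Gata3*, *Il1rl1*, *Cd4* and *Cd3e*. All 7 had 3 to 7 shared peaks, with the most at *Cd4* (7) and *Cd3e* (6). Beside this, 15.2% of all protein-coding genes with reads of both libraries had at least 3. Without an input library, these counts cannot show whether the antibody enriched Gata3 sites. The list was also chosen with earlier results of these data known. Shared peaks are positions of reads from the Gata3 precipitation and do not show which genes were expressed.

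Of the 7 members analysed, 6 had at least 1 shared peak in the locus, beside 56.8% of all 21150 protein-coding genes with reads of both libraries. The loci held 17 shared peaks, with 5 at *Egr3*, 4 at *Nab1*, 3 at *Nr4a3*, 2 each at *Egr1* and *Nr4a1*, 1 at *Nab2* and 0 at *Nr4a2*. At 4 members (*Egr1*, *Nr4a1*, *Nr4a3* and *Nab1*) the library 1 summit of a shared peak lay within 2 kb of an annotated transcript start, beside 17.8% of all genes. At 3 members (*Nr4a1*, *Nr4a3* and *Nab1*) a shared peak lay in the gene body, beside 30.5% of all genes. Per 100 kb, the member loci held 4.04 shared peaks and the whole genome 0.873, and the median over the loci of all genes was 1.12. Of the 17 summits, 9 were upstream of the member, 5 in its introns and 3 downstream of it, and 0 lay in an exon of a protein-coding gene. With a threshold of q of 1e-10, or with at least 5-fold over the local density, 5 shared peaks were called in the loci of 3 members, *Egr3*, *Nr4a1* and *Nab1*, beside 20.4% and 25.3% of all genes with a peak under the respective setting. Counted from the start of the gene record alone, 2 members, *Egr1* and *Nab1*, had a promoter peak, beside 12.2% of all genes. A promoter peak was left at *Nr4a1* alone at q of 1e-10 or with at least 5-fold, beside 4.39% and 4.42% of all genes. It was left at *Nr4a1* and *Nr4a3* where the summits of both libraries had to lie within 100 bp (14.7% of all genes), and at *Nr4a3* and *Nab1* within 1 kb of a start (12.1%).

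The sequences at the summits are given for the tallest shared peak of *Egr3*, *Nr4a1*, *Nr4a3*, *Nab1* and *Nab2* and for the promoter peaks of *Nab1*, because the share of summits with the GATA letters is among the values that set these loci beside the rest of the genome. Each is the 200-bp window at the summit of library 1, on the plus strand of GRCm38. Capitals mark the GATA sequence (spelled AGATAA or AGATAG, or else TGATAA or TGATAG, on either strand) and the AP-1 sequence (TGACTCA or TGAGTCA), the site of the Fos and Jun factors that T cell activation induces. *Nab1* and *Nab2* are transcribed from the minus strand, and the other 3 genes shown from the plus strand.
Egr3, 10197 bp downstream of the start, chr14:70087301-70087500: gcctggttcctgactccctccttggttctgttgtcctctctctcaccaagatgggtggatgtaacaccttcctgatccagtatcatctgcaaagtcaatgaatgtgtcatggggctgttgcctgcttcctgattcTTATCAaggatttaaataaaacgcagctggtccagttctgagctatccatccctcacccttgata
Nr4a1, intron 2, chr15:101267751-101267950: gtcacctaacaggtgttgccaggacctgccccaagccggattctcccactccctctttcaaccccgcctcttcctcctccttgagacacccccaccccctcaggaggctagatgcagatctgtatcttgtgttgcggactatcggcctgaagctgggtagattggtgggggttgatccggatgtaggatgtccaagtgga
Nr4a3, 2503 bp upstream, chr4:48042551-48042750: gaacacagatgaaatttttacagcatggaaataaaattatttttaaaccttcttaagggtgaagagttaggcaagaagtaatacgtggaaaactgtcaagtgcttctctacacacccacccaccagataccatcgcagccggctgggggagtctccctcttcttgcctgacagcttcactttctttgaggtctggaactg
Nab1, intron 3, chr1:52487501-52487700: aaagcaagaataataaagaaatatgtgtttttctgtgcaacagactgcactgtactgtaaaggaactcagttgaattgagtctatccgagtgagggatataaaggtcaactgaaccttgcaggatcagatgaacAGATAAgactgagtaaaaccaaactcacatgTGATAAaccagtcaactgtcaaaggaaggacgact
Nab1, intron 2, chr1:52499451-52499650: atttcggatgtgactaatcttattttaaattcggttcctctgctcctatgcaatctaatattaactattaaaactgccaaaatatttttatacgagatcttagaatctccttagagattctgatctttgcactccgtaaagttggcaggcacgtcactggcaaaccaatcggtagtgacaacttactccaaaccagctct
Nab1, intron 6, chr1:52466601-52466800: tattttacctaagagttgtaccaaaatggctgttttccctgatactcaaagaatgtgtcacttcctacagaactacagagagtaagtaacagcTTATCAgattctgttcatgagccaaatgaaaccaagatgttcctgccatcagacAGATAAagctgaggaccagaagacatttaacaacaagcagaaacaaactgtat
Nab2, 6082 bp upstream, chr10:127674551-127674750: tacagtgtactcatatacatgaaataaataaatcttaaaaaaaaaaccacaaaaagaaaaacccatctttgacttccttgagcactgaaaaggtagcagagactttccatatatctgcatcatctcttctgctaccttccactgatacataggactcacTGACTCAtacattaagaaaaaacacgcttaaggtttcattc
The *Egr3* window carries TTATCA, the reverse complement of TGATAA, with its first base 36 bp after the summit. The *Nab1* window in intron 3 carries AGATAA and TGATAA at 35 and 66 bp after the summit, and also the letters AAAGGTCA at 1 bp after it, which are the NBRE bound by Nr4a monomers. The *Nab1* window in intron 6 carries TTATCA 6 bp before the summit and AGATAA 48 bp after it. The *Nab2* window carries an AP-1 sequence 60 bp after the summit, and the windows of *Nr4a1*, of *Nr4a3* and of intron 2 of *Nab1* carry neither of the marked sequences.

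*Egr3* (chr14:70077203-70082614, plus strand), an Egr factor of T cell activation, had the highest read level of the 7 loci and the tallest shared peak. The mean read level of its locus was 0.323 RPM (reads per 1000000 reads of the library) per 200-bp window in library 1 (95% Poisson interval 0.311 to 0.335) and 0.306 in library 2 (0.291 to 0.320). These levels were 4.40 and 4.16 times the mean of the respective library, 0.0734 RPM per window in both. A lower level than at *Egr3* was found at 99.9% of all protein-coding genes. The interval of *Egr3* lay above that of every other member analysed in both libraries. At least 5 shared peaks were found at 4.46% of genes, and per 100 kb of locus *Egr3* had 11, which was more than at 99.9% of genes. The count of 5 was 3 at q of 1e-10 and 2 with at least 5-fold over the local density, and it was 2 with 10 kb either side and 0 in the gene body.

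The 5 shared peaks of *Egr3* all lay outside the gene, 2 upstream and 3 downstream. The tallest, 10197 bp downstream of the start (chr14:70086901-70087900), held 149 reads at the summit in library 1 and 88 in library 2, or 3.68 and 3.53 RPM. Its fold over the local density was 5.68 (p = 3.41e-61, exact Poisson test) and 5.01 (p = 5.23e-33). In height, 98.2% of all shared peaks were lower (by the lower RPM of both libraries, as in all such ranks unless fold is named). By the lower fold of both libraries, 74.1% of all shared peaks were lower. The second, 13897 bp downstream of the start (chr14:70090701-70091500), had 122 and 63 reads (3.01 and 2.52 RPM) with the letters TTATCT 4 bp after its summit. Its fold was 4.75 and 4.10, and 41.6% of shared peaks were lower by fold. The most distal, 18997 bp downstream (chr14:70095701-70096600), had 86 and 36 reads (2.12 and 1.44 RPM) and TTATCT 17 bp before its summit. Its fold was 5.01 and 3.57, and 19.9% of shared peaks were lower by fold. Both of these summits lay nearer to the start of *Bin3*, a gene of the BAR domain family, than to that of *Egr3*, at 9005 and 3905 bp, so they cannot be assigned to 1 gene from position. All 3 downstream peaks thus carried the GATA sequence within 100 bp of the library 1 summit. In the most distal, the library 2 summit lay 150 bp from that of library 1, and the TTATCT lay more than 100 bp from it.

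The upstream peaks of *Egr3* had no GATA sequence within 100 bp of their summits. The one 11353 bp upstream (chr14:70065551-70066250) had 81 and 47 reads (2.0 and 1.88 RPM), with the highest fold of the locus, 6.15 and 6.18. The one 15353 bp upstream (chr14:70061451-70062200) had 51 and 32 reads (1.26 and 1.28 RPM) and carried an AP-1 sequence 65 bp before its summit. Reads were spread unevenly over the locus, at 0.447 and 0.428 RPM per window in the 20 kb downstream, 0.239 and 0.224 upstream and 0.175 and 0.157 in the gene body. The gene body level of *Egr1* was higher than that of *Egr3* in both libraries, at 0.190 and 0.182. In library 2 alone, those of *Nr4a1*, *Nr4a2* and *Nab2* were also higher (0.169, 0.188 and 0.161). Those of *Nr4a3* and *Nab1* were lower in both. Shared peaks covered 9.36% of the *Egr3* locus and held 46.6% of its reads in library 1 and 41.6% in library 2. Outside them the level was still 2.59 and 2.68 times the library mean, the highest such value of the 7 members in both libraries.

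*Egr1* (chr18:34859823-34864984, plus strand), an immediate early Egr factor, had 2 shared peaks, both upstream and both without the GATA or AP-1 sequence. On chromosome 18, the peak at chr18:34854751-34855400 had its summit 4723 bp upstream of the start, with 50 and 24 reads (1.23 and 0.962 RPM), and was higher than 61.2% of shared peaks. The peak at chr18:34857701-34858350 had its library 1 summit 1873 bp upstream, inside the promoter distance. Its library 2 summit, at chr18:34857800, lay farther upstream and outside that distance. This peak held 46 and 20 reads (1.14 and 0.801 RPM) and was higher than 48.6%. Its fold in library 2, 3.18 (p = 9.92e-06, exact Poisson test), was the lowest of the 17 peaks. The counting intervals of the 2 peaks overlapped in each library. The locus level was 0.149 (0.141 to 0.157) and 0.139 (0.129 to 0.149) RPM per window, above 92.2% of genes, and 2 further peaks of library 1, at 5377 and 17027 bp downstream of the start, were not called in library 2.

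**Figure D1:**
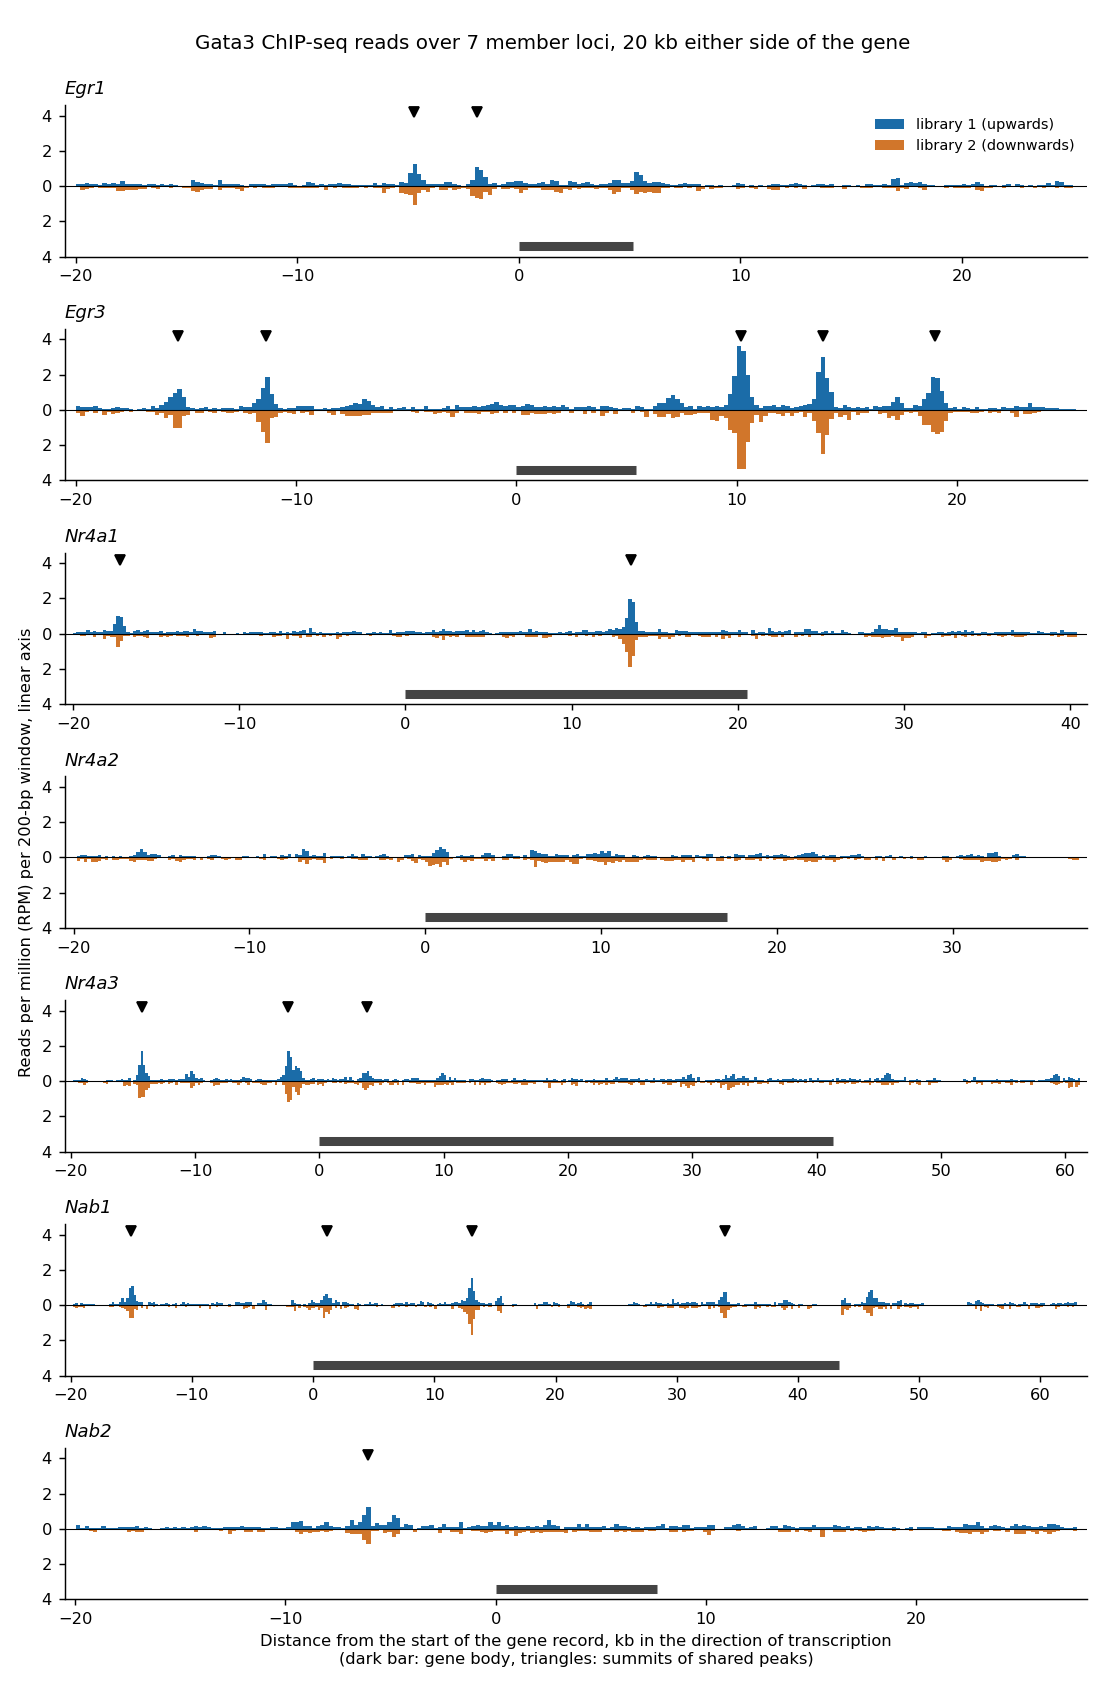
RPM in consecutive 200-bp windows (library 1 upwards, library 2 downwards, linear axis) against the distance from the start of each gene record in kb, with the gene body as a dark bar and summits of shared peaks as triangles. The tallest of these windows stood downstream of *Egr3*, at 3.60 RPM in library 1 and 3.33 in library 2 (summit heights in the text are from windows laid every 50 bp), and the *Nr4a2* panel shows 0 shared peaks.

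*Nr4a1* (chr15:101254269-101274795, plus strand), which encodes Nur77, had 2 shared peaks of unequal height. The taller lay in intron 2 (chr15:101267451-101268250), 13581 bp downstream of the start of the gene record but 1004 bp from the start of another annotated transcript of *Nr4a1*. It held 87 reads in library 1 and 49 in library 2 (2.15 and 1.96 RPM), with a fold of 6.11 and 6.09 over the local density (p = 8.39e-39 and 1.44e-22, exact Poisson test), and 89.5% of shared peaks were lower. The lower lay 17169 bp upstream (chr15:101236701-101237350) with 44 and 18 reads (1.09 and 0.721 RPM), and carried AGATAA 44 bp before its summit. Its summit was nearer to the start of *Grasp*, which encodes a scaffold protein, at 12912 bp. The intervals of the 2 peaks did not overlap in either library. The locus level was 0.137 and 0.129 RPM per window, above 87.4% of genes.

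*Nr4a3* (chr4:48045153-48086447, plus strand), which encodes Nor-1, had 3 shared peaks, and none had the GATA or AP-1 sequence within 100 bp. Library 1 alone gave 7 peaks, of which 4 were not called in library 2. The peaks 14303 bp upstream (chr4:48030501-48031250) and 2503 bp upstream (chr4:48042351-48043450) had the same 70 reads in library 1 (1.73 RPM), and 29 and 34 reads in library 2 (1.16 and 1.36 RPM). The third lay in intron 1 (chr4:48048651-48049150), 3797 bp downstream of the gene record's start and 164 bp from another transcript start, the nearest of all 17 to a start. It was also the lowest of the 17 by its lower library, with 27 and 15 reads (0.667 and 0.601 RPM), and 24.2% of shared peaks were lower. Upstream of the gene the level was 0.213 and 0.187 RPM per window, against 0.127 and 0.128 in the gene body and 0.104 and 0.0950 downstream. The whole locus stood at 0.143 and 0.135 RPM per window, above 90.3% of genes.

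*Nr4a2* (chr2:57106830-57124003, minus strand), which encodes Nurr1, was the only member analysed with 0 shared peaks, and the nearest shared summit lay 107247 bp from its start, farther than at 81.6% of genes. Library 1 alone gave 4 peaks in the locus and library 2 gave 0. The tallest, 853 bp downstream of the start, had 24 reads in library 1 (0.593 RPM, p = 7.99e-08, exact Poisson test) and 15 reads in the same window of library 2 (0.601 RPM), which did not reach the threshold there. In the other 3, with 18 to 21 reads in library 1, library 2 had 10, 2 and 2 reads. At the mean density of this locus a window needed 15 reads in library 1 and 13 in library 2 to be called, and this number rose and fell with the local density around the window. The count of 0 depended on the calling: it was 1 with windows of 400 bp and 2 when the central 1 kb was left out of the local density. The locus was not low in reads: its level was 0.112 (0.106 to 0.118) RPM per window in library 1 and 0.129 (0.121 to 0.138) in library 2, above 78.0% of genes. It was the only member locus in which library 2 stood above library 1 with intervals that did not overlap, and this difference lay in the gene body (0.144 and 0.188) more than in the flanks.

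The co-repressor gene *Nab1* (chr1:52457294-52500679, minus strand) had 4 shared peaks, 3 of them in introns, and library 1 alone gave 9. The tallest lay in intron 3 (chr1:52487301-52487950), 13079 bp downstream of the start, with 65 and 47 reads (1.60 and 1.88 RPM) and a fold of 5.66 and 6.28 (p = 1.19e-27 and 3.06e-22, exact Poisson test). It was the peak with 2 GATA sequences and the NBRE letters shown above. The peak in intron 2, 1129 bp downstream of the start and 750 bp from the nearest transcript start, had 27 and 20 reads (0.667 and 0.801 RPM). The peak in intron 6, 33979 bp downstream and 357 bp from another transcript start, had 39 and 19 reads (0.963 and 0.761 RPM) and again 2 GATA sequences. The upstream peak, 15021 bp from the start, had 47 and 21 reads (1.16 and 0.841 RPM). A further 5 peaks of library 1, with 13 to 35 reads, and 1 of library 2, with 14 reads, were called in that library only. The locus level of *Nab1* was 0.114 (0.109 to 0.119) and 0.115 (0.108 to 0.121) RPM per window, above 71.1% of genes and the lowest of the 7 in the mean of both libraries. Outside the shared peaks the level was 0.0935 and 0.0960 RPM per window, 1.27 and 1.31 times the library mean. Both RPM values lay below the median of all genes, 0.100, which covers whole loci with their peaks.

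The other co-repressor gene, *Nab2* (chr10:127660918-127668568, minus strand), had 1 shared peak, 6082 bp upstream of its start (chr10:127674451-127674950). It held 52 and 24 reads (1.28 and 0.962 RPM), 4.14 and 4.76 times the local density, with an AP-1 sequence and no GATA sequence. The summit lay in intron 1 of *Nemp1*, which encodes a nuclear envelope protein and whose start was 2414 bp away, and in the antisense gene *Gm16230*, so the peak cannot be assigned to *Nab2* from position. Library 1 alone gave 3 peaks, and the other 2, with 21 and 34 reads in it, were not called in library 2. The locus level was 0.144 (0.136 to 0.151) and 0.125 (0.116 to 0.134) RPM per window, above 88.0% of genes, and 6.14% and 4.99% of its reads lay in the shared peak. Outside it the level was 1.86 and 1.63 times the library mean.

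**Figure D2:**
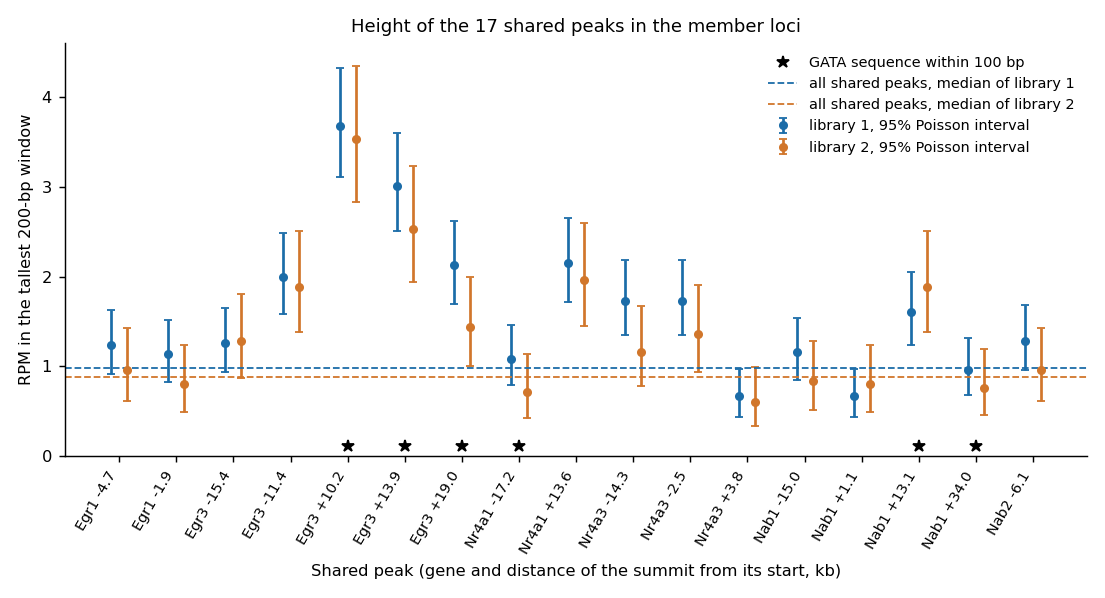
RPM in the tallest 200-bp window of each of the 17 shared peaks, with 95% Poisson intervals, for library 1 and library 2, and a star where the GATA sequence lies within 100 bp of the summit. The *Egr3* peak at +10.2 kb was the tallest in both libraries, and the dashed lines are the medians over all shared peaks, 0.988 RPM in library 1 and 0.881 in library 2.

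By read level the members fell in the order *Egr3*, *Egr1*, *Nr4a3*, *Nab2*, *Nr4a1*, *Nr4a2* and *Nab1* (mean of both libraries). Only *Egr3* stood apart. *Egr1*, *Nr4a3*, *Nab2* and *Nr4a1* had means from 0.144 down to 0.133 RPM per window, and the intervals of neighbours in this order overlapped in both libraries. *Nr4a2* stood below *Nr4a1* in library 1 and level with it at 0.129 in library 2. All 7 levels were above the median of all genes, 0.100 RPM per window, and *Nab1* was the only member under the upper quartile, 0.118. Around the start of the gene record (500 bp either side) the members held 22 to 52 reads in library 1 and 13 to 26 in library 2, and 49.7% (*Nr4a1*) to 84.1% (*Egr3*, *Nab2*) of genes had a lower level there.

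**Figure D3:**
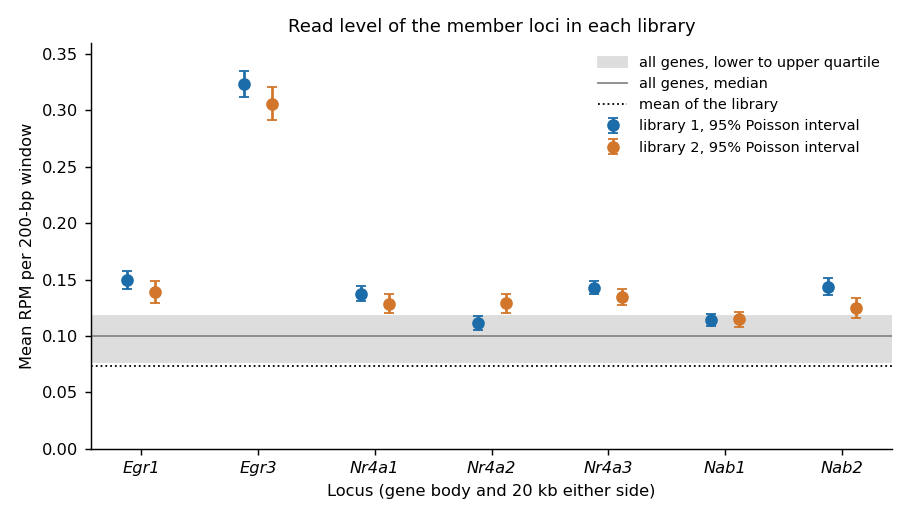
Mean RPM per 200-bp window over each member locus (gene body and 20 kb either side), with 95% Poisson intervals, for library 1 and library 2, beside the quartiles of all genes and the library mean. *Egr3* stood at 0.323 and 0.306, and the other 6 members lay between 0.112 and 0.149.

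The GATA sequence lay within 100 bp of 6 of the 17 member summits (35.3%) and of 70.9% of all 23806 shared summits. The 6 were the 3 downstream peaks of *Egr3*, the upstream peak of *Nr4a1* and the peaks in introns 3 and 6 of *Nab1*. At the summits of library 2 the counts were 4 of 17 (23.5%) and 65.9%. Within 50 bp of the library 1 summit it was found at the same count of member peaks, 6 of 17, and at 46.4% of all shared peaks. The member share moved with the calling: it was 18 of 35 (51.4%) for the peaks of library 1 alone, beside 68.7% of all its peaks, and 4 of 18 (22.2%) for library 2 alone, beside 63.8%. It was 3 of 5 (60%) at q of 1e-10, beside 74.1%, and 10 of 19 (52.6%) with windows of 400 bp, beside 68.3%. Anywhere in the library 1 peak it was found at 11 of 17 (64.7%) and 89.6%. The core letters GATA alone lay within 100 bp of 14 of 17 (82.4%) and 88.0%. By the lower RPM of both libraries, 12 of 17 member peaks were above the median height of all shared peaks, 0.801 RPM. By the lower fold over the local density they did not stand out, with a median of 4.29 beside 4.30 over all shared peaks. Among all shared peaks divided into 4 classes by height, the share with the sequence was 67.7% in the lowest class and 74.5% in the highest. Of the member peaks, 4 of 8 in the highest class had it and 0 of 5 in the third (beside 70.3%). In the second class 2 of 4 had it (beside 70.8%), and 0 member peaks were in the lowest. The intron 1 peak of *Nr4a3*, at 0.601 RPM in its lower library, stood on the boundary of the lowest class and was counted in the second. Peaks within 2 kb of a transcript start had the GATA sequence in 66.2% of all cases and in 1 of 5 at the members. These shares are descriptions of 17 peaks, and no test was made on them.

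The other sequences lay at 0 to 2 of the member summits. The AP-1 sequence lay at 2 of 17 member summits (11.8%, beside 12.3%), at *Egr3* and *Nab2*. The RUNX letters TGTGGT lay at 2 (11.8%, beside 17.1%), at the peak 11353 bp upstream of *Egr3* and at the *Nab2* peak. The NBRE, AAAGGTCA, lay at 1 (*Nab1*, intron 3), beside 1.26%. The Egr site (GCGTGGGCG or GCGGGGGCG), the CRE (TGACGTCA) and the CArG box of serum response factor lay at 0 of 17, beside 0.168%, 0.286% and 0.786%. In 9 of 17 member summits (52.9%) neither the GATA nor the AP-1 sequence was found, beside 25%. All were searched on both strands, and a match does not show which factor was bound.

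**Figure D4:**
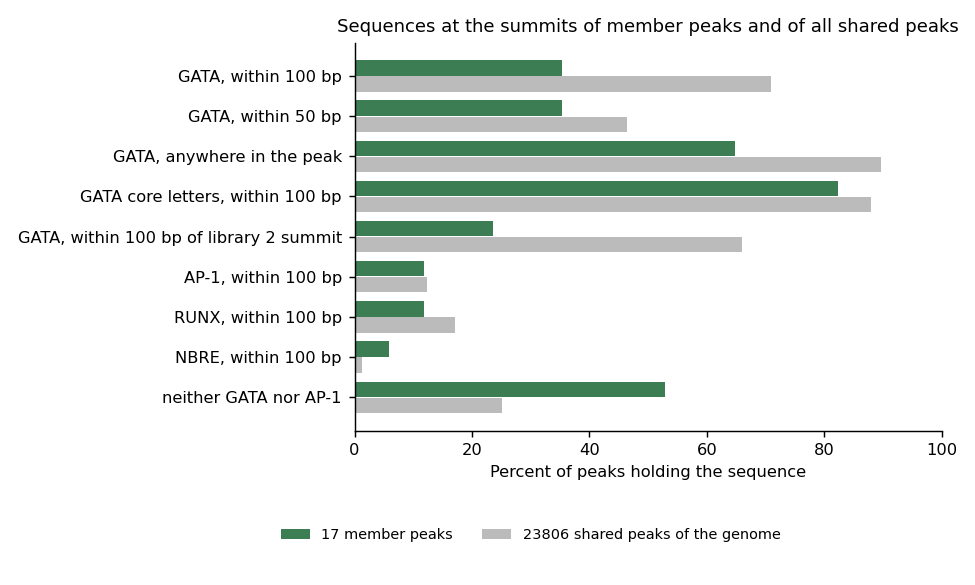
Percent of the 17 member peaks (green) and of all 23806 shared peaks (grey) that hold each sequence, within the stated distance of the summit or anywhere in the peak. The GATA sequence within 100 bp stood at 35.3% and 70.9%, and the core letters at 82.4% and 88.0%.

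Both libraries were then compared with each other at the member peaks. Library 1 called 35 peaks in the 7 loci and 17 of them (48.6%) had a partner in library 2, beside 33.2% of all library 1 peaks, while library 2 called 18 peaks of which 1, at *Nab1*, had no partner. The summits of both libraries lay within 100 bp at 12 of the 17, beside 18801 of all 23806 shared peaks. In RPM, the reads over the shared peaks were 0.928 to 1.94 times as many in library 1 as in library 2, and 1.10 times over all shared peaks. The difference was beyond counting error at 3 of 17 (exact binomial test, adjusted p under 0.05), beside 15.2% of all shared peaks. By this exact test the upstream peak of *Nr4a1* (1.94-fold, adjusted p = 0.00814), the *Egr3* peak at 13897 bp (1.38-fold, adjusted p = 0.0137) and the *Nr4a3* peak at 2503 bp upstream (1.40-fold, adjusted p = 0.0316) were all higher in library 1. Scaled to the reads in shared peaks, the *Nr4a1* peak alone differed in the exact test (adjusted p = 0.0368), beside 11.3% of all shared peaks.

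The genes around the members in this response were examined from a list of 40, of which 36 (90%) had a shared peak in the locus, beside 56.8% of all genes, with a median of 3 peaks beside 1 over all genes. Among the factors upstream of the members, 9 of 10 had one, with 4 each at *Creb1*, which encodes a cyclic AMP response factor, and at *Nfatc1* and *Nfatc2*, which encode calcium-dependent NFAT factors. *Srf*, which encodes serum response factor, had 0. Of the family and partner receptors, 2 of 3 had one, with 2 at *Rxra* and 1 at *Rxrb*, retinoid X receptors, which pair with some Nr4a proteins, and 0 at *Egr4*. Among other immediate early genes 11 of 13 had one, with 4 each at *Btg2*, *Cd69* and *Zfp36* and 0 at *Dusp5* and *Klf10*. All 14 genes that restrain T cell activation had one, with 11 at *Cblb*, a ubiquitin ligase, and 10 at *Tox*, a nuclear factor of exhausted T cells, both of which have long loci (217 and 345 kb). These values are counts beside those of the members, from a list chosen with earlier results of these data known. A longer locus also has more room for peaks.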

How the data were processed

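Gata3 ChIP-seq was measured in 2 libraries of *in vitro* TH2 cells, numbered as replicates in the sample labels, which name no separate animals or cultures. According to the study's methods, the authors used Bowtie2 to place single reads on GRCm38 and kept those with a unique position. The submitters' processing notes list Bowtie2 2.3.5.1 and MACS2 2.1.2. The authors deposited 1 line per aligned read, with a mapping quality score from 22 to 44, which is not a measure of binding. In either file 0 lines repeat the 5′ end and strand of another line. Duplicates had thus been removed, which caps the height of a peak. The study's methods say that the libraries were pooled for sequencing on an Illumina instrument. No value here shows whether both shared a sequencing run, so library and run cannot be told apart.

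Each read was moved 100 bp downstream on its strand, and windows of 200 bp were laid every 50 bp. The count of each window was compared, with the largest of the mean density of the library, of the surrounding 5 kb and of the surrounding 10 kb as expectation, by a one-sided exact Poisson test, with Benjamini-Hochberg adjustment over all windows with a read and a threshold of q of 0.01. The local means include the window's own reads. Windows within 100 bp were joined, and the middle of the fullest window was taken as the summit. A peak was shared where peaks of both libraries overlapped by at least 1 bp, and was given to a gene by the summit of library 1. Heights are in RPM, per 1000000 of the library's reads on chromosomes 1 to 19, X and Y, which numbered 40504814 and 24959052. Intervals are 95% exact Poisson intervals and cover counting error only. Libraries were compared at each shared peak with a two-sided exact binomial test and Benjamini-Hochberg adjustment over all 23806 shared peaks. The calling and the binomial test were checked on simulated data, in which the binomial test missed more of the planted library differences than it found (the pass mark of this check was lowered after a first attempt failed it), so a peak without a call is not shown to be equal in both libraries. The alternatives tried were other thresholds, window widths, mapping qualities, local densities, locus and promoter widths, each library alone, a thinned library 1 and other searches for the GATA letters. Genes came from GENCODE M21, on the same build.

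The members, the gene lists and the tests were chosen with earlier results of these data known. Genes were named by rule, as the members, the protein-coding genes that hold or start nearest to a shared summit in a member locus, and the 2 listed activation genes of each group with most shared peaks, ties included. The TH2 and T cell genes examined for comparison are a separate list of cell type markers. *Srf*, *Egr4*, *Dusp5* and *Klf10*, the listed genes with 0 shared peaks, and the antisense gene *Gm16230* fall outside this rule and were named after their values were seen. *Egr2* was not analysed here. The background counts used the 21150 of 21938 protein-coding genes with a read of both libraries in the locus. Python 3.11.15, NumPy 2.4.6, SciPy 1.17.1, pysam 0.24.0 and Matplotlib 3.10.9 were used.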

Additional observations from a re-analysis of the deposited data

How the results depend on the processing

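No paired analysis was possible because the ChIP-seq libraries used here are of 1 condition. A threshold of q of 1e-10 and a minimum of 5-fold over the local density each gave 5 shared peaks in the loci of 3 members, 1 member with a promoter peak (4.39% and 4.42% of all genes) and 22 of 40 activation genes with a peak in the locus (20.4% and 25.3% of all genes). Counted in the gene body only, there were 5 shared peaks at 3 members and 22 activation genes (beside 30.5% of all genes), and with 10 kb either side 11 shared peaks. Members with a promoter peak numbered 2 with summits within 100 bp (14.7% of all genes), 2 within 1 kb of a start (12.1%) and 2 from the gene record's start (12.2%). For single members, 3 to 6 settings moved the count of peaks by over 1.5 times. Each library alone gave 18 to 35 peaks in the member loci, of which 22.2% to 51.4% had the GATA sequence. The share of member summits with the GATA sequence was 60% at q of 1e-10, 52.6% with windows of 400 bp, 45% without the central 1 kb in the local density (70.0% of all shared summits) and 25% with summits within 100 bp (71.8%). It was 64.7% anywhere in the peak and 82.4% for the core letters, 2 searches chosen after seeing the data, as was the search at the summit of library 2. The mean read level of the 7 loci, 0.157 RPM per window, was 0.172 with 10 kb and 0.130 with 50 kb either side. With the ratio of reads in shared peaks, 1 member peak differed between the libraries. In the other settings run, these counts stayed within 1.5 times and the read level within the spread of the libraries. For each library alone, the read level could not fall outside that spread. The GATA share left its counting interval only in the search anywhere in the peak and in that for the core letters. No input library was used here, and the absence of a call does not show that Gata3 was absent. Without an input library, a call alone also does not show that Gata3 was bound there.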
